A study of Eisenia fetida with 15 samples.

Results

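The comparison set 6 RNA libraries of the compost earthworm *Eisenia fetida* coded for soil aged 30 d against 6 libraries coded for freshly spiked soil (0 d). They are 12 of the 15 libraries of the series, chosen by the code in the column header, and the 3 libraries coded control were left out. Both soils carried a nominal 2.4 mg/kg of lindane, so the comparison holds dose fixed and varies the time that the insecticide had spent in the soil before the adult worms were added. Worms were sampled after 7 d or 28 d, which gives 4 triplets of libraries: 30d-7d and 30d-28d from aged soil, and 0d-7d and 0d-28d from fresh soil. In each code the first term is soil age and the second is exposure. No strain is named in the labels, the RNA came from body sections, and whether a triplet holds 3 separate worms is not stated. The p-values therefore measure the spread between these libraries, which may be technical.

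Lindane is an organochlorine insecticide whose known target in insects is the chloride channel opened by the transmitter GABA. Organic residues tend to bind to soil particles over time, so an aged residue is often less easily taken up by soil animals than a fresh one. Animals oxidise foreign compounds with cytochrome P450 and flavin monooxygenase enzymes, couple the products to sugars or glutathione, and export them through ATP-binding cassette (ABC) transporters. Earthworms meet a soil residue through both skin and gut, and their coelomocytes, the free cells of the body cavity, take part in defence.

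The labels contradict each other on what each triplet is. The code stands in the description and in the bracketed end of the title, whereas the treatment field names a different condition, shifted by 1 triplet. By that field the 30d-7d libraries are 28 d in soil aged 0 d, the 30d-28d libraries are 7 d in soil aged 30 d, the 0d-7d libraries are unexposed worms sampled at 0 d, and the 0d-28d libraries are 7 d in soil aged 0 d. If the treatment field were right, the comparison described here would not be one of aged against fresh soil. Groups are called by their codes throughout, and no expression value entered that choice.

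The 30d libraries held 13483977 to 23619530 reads and the 0d libraries 13182058 to 21514194 reads on 241846 assembled transcript contigs, called unigenes. Of these, 92645 had enough reads to be tested, and they took 97.4% to 98.6% of the reads of the 30d libraries and 88.6% to 98.3% of those of the 0d libraries, the 88.6% being 0d-28d library 3. Levels are given in FPKM, the authors' fragment values per unit of length and depth. Genes are named from the table's best protein match, often in another phylum. A match was present for 37608 tested unigenes, and 8882 had an informative name.

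No tested unigene passed the threshold between soils. With edgeR's quasi-likelihood test, exposure time as a covariate and Benjamini-Hochberg adjustment, 0 of 92645 unigenes had an adjusted p under 0.05, which is 0% of those tested, and the lowest adjusted p was 0.612. At an unadjusted p under 0.05 there were 1726 unigenes higher in 30d soil (1.86%) and 1904 lower (2.06%), 3630 in all (3.92%). DESeq2 on the same counts called 162 unigenes (0.175%), 75 higher and 87 lower in 30d soil, and limma on log2(FPKM + 1) called 0. Of all tested unigenes, 43797 or 47.3% had a log2 change above 0, and the median log2 change, 30d minus 0d, was -0.04. Over whole libraries, soil went with 6.83% of the squared distance between libraries (exact permutation test within exposure times, 400 arrangements, p = 0.87).

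The libraries resembled each other no more within a soil than between soils. Spearman's rho over tested unigenes averaged 0.649 over 30 pairs within a soil, 0.657 over 36 pairs between soils, and 0.637 over the 12 pairs within a triplet. The closest library belonged to the same soil for 6 of 12 libraries and to the same triplet for 1 of 12. The pair most alike was 30d-7d library 3 with 30d-28d library 1 at 0.753, whereas 0d-28d library 3 had a mean rho of 0.583 with the other libraries and 0d-7d library 3 had 0.623. Of the variance of a tested unigene's log2(FPKM + 1), an average of 8.7% went with soil, 9.55% with exposure time, 8.53% with their interaction and 73.2% with differences between libraries of a triplet. Their shares of the degrees of freedom are 9.09% for each of soil, exposure time and interaction and 72.7% for libraries within triplets.

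**Figure D1:**
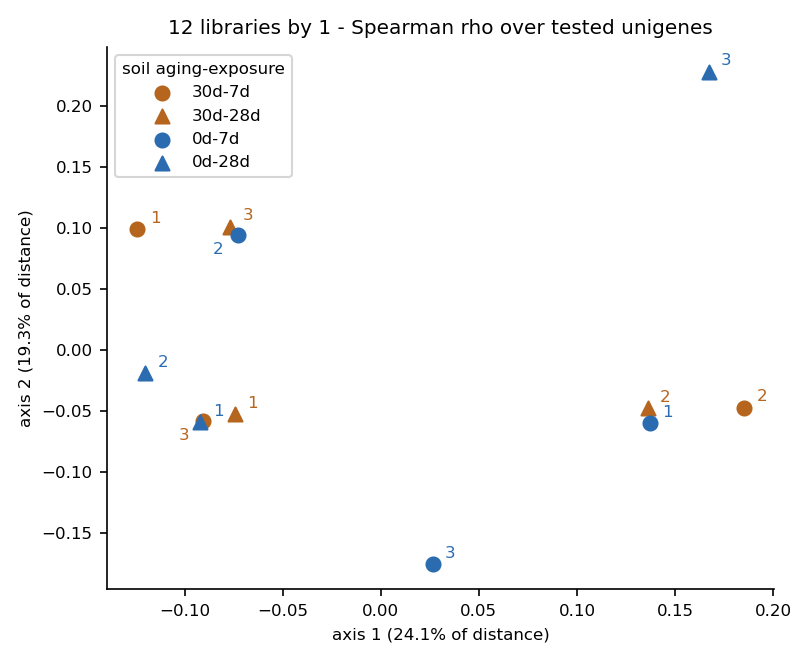
Multidimensional scaling of the 12 libraries by 1 minus Spearman's rho over the tested unigenes. Each point is a library with its replicate number, brown for 30d soil and blue for 0d soil, circles for 7 d and triangles for 28 d; the axes carry 24.1% and 19.3% of the distance. Both soils occur at the left, and 0d-28d library 3 lies alone at the upper right.

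The spread set how small a change could be resolved. The 95% interval of a tested unigene reached a median of 1.3 on the log2 scale to either side of its estimate, a factor of 2.46. At a mean of 5 to 50 FPKM the half-width was 0.97, a factor of 1.95, and under 1 FPKM it was 1.91. These half-widths are for a single unigene with no adjustment, and a call after adjustment over all tested unigenes needed a larger or more even difference. In total 5099 unigenes (5.5%) had an estimate past 4-fold in either direction and none of them was called, so the count of 0 is not a statement that differences were absent.

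Few unigenes kept the soils apart in all libraries, judged by the deposited FPKM. All 6 libraries of 30d soil lay above all 6 of 0d soil for 98 unigenes (0.106%) and below them for 63 (0.068%), 161 in all (0.174%). The edgeR test used scaled reads instead, and separation on that scale was not examined over all unigenes. Among the 3810 unigenes with an informative name and at least 5 FPKM on average in the higher soil, there were 2 of the first kind and 2 of the second. The 2 higher in 30d soil matched an alpha-mannosidase and a receptor tyrosine kinase, and the 2 lower matched UDP-glucose 6-dehydrogenase and a DNA ligase. None of the 4 passed the test, each with an adjusted edgeR p of 1.0.

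The alpha-mannosidase unigene contig_8358 had the widest separation of the 4 in FPKM. Alpha-mannosidases remove mannose from the sugar chains of glycoproteins. Its level was 176.7, 91.1 and 89.3 FPKM in the 30d-7d libraries and 83.9, 104.8 and 158.1 FPKM in the 30d-28d libraries, against 54.9, 40.2 and 28.7 FPKM in 0d-7d and 49.5 to 75.2 FPKM in 0d-28d. The lowest 30d library thus stood above the highest 0d library in FPKM. On the scale of the edgeR test the soils overlapped. There 30d-7d library 2 fell below 0d-28d library 3. The first had 1843 of 13483977 reads, with 98.1% on tested unigenes and a scaling factor of 1.12. The second had 1454 of 13182058 reads, with 88.6% and a factor of 0.975. The means were 117.3 ± 39.8 FPKM in 30d soil and 51.4 ± 16.1 FPKM in 0d soil (SD, n = 6 each). The log2 change was 1.13 with a standard error of 0.28 and an unadjusted edgeR p of 0.00201, at 1.41 after 7 d and 0.85 after 28 d. With any 1 library left out the change was positive, at 1.29 or less. Of the 26 tested unigenes named alpha-mannosidase, 16 were higher in 30d soil with a median log2 change of 0.18. Of the 26, 4 (15.4%, against 3.92% over all tested) had an unadjusted p under 0.05. The group median turned sign between times, at 1.09 after 7 d and -0.11 after 28 d. The pooled median was 0.41 without 30d-28d library 2 and 0.12 without 0d-7d library 3. A second of these, contig_69844, was highest in 30d-28d library 3, with 44.0 FPKM there, at most 9.0 FPKM in the other 30d libraries and at most 2.52 FPKM in 0d soil.

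The unigene contig_29077 matches a receptor tyrosine kinase, a membrane receptor that phosphorylates tyrosine when a ligand binds. It gave 16.5 to 34.1 FPKM with a median of 18.3 in 30d soil. In 0d soil the median was 13.6 FPKM and the lowest level 9.57 FPKM, and every library stayed under 16.5 FPKM. This separation held in FPKM only. In reads, 30d-7d library 1 had 103 of 14835227, against 120 of 13590867 in 0d-7d library 1. Per library total the soils therefore overlapped. The log2 change of this receptor kinase unigene was 0.62 with a standard error of 0.25. Of 33 tested unigenes with that name, 24 were higher in 30d soil with a median log2 change of 0.33. Their summed level was 202.9, 274.2 and 340.1 FPKM (lowest, median, highest) in 30d soil and 147.9, 184.1 and 215.0 FPKM in 0d soil, so the summed levels overlapped only between 202.9 and 215.0 FPKM.

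UDP-glucose 6-dehydrogenase, contig_75653, makes UDP-glucuronate, the sugar donor for glucuronide conjugation. It held 2.73 to 3.68 FPKM with a median of 3.41 in the 30d libraries, against 4.05 to 8.24 FPKM with a median of 4.59 in the 0d libraries. In reads, 30d-28d library 3 had 44 of 22313887, against 31 of 15804462 in 0d-7d library 3. Per library total the soils therefore overlapped, if barely. The log2 change of this unigene was -0.62 with a standard error of 0.28. Both other unigenes of that name were also lower in 30d soil, 1 of them by only -0.07, and the 3 had a median log2 change of -0.44. Together they summed to 9.47 to 18.5 FPKM in 30d soil and 8.57 to 21.9 FPKM in 0d soil, so the sums overlapped.

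DNA ligase, contig_24117, seals breaks in the DNA backbone. It stood at 6.84 to 8.54 FPKM in 30d soil and 8.99 to 12.7 FPKM in 0d soil, a log2 change of -0.44 with a standard error of 0.20. In FPKM the soils were therefore apart, but only narrowly. In reads, 30d-7d library 2 had 814 of 13483977, against 884 of 15804462 in 0d-7d library 3, so per library total the soils overlapped. All 4 tested DNA ligase unigenes were lower in 30d soil, with a median of -0.69, which was -0.14 after 7 d and -1.22 after 28 d. Without 0d-28d library 3 the median of the 4 was -0.07.

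**Figure D2:**
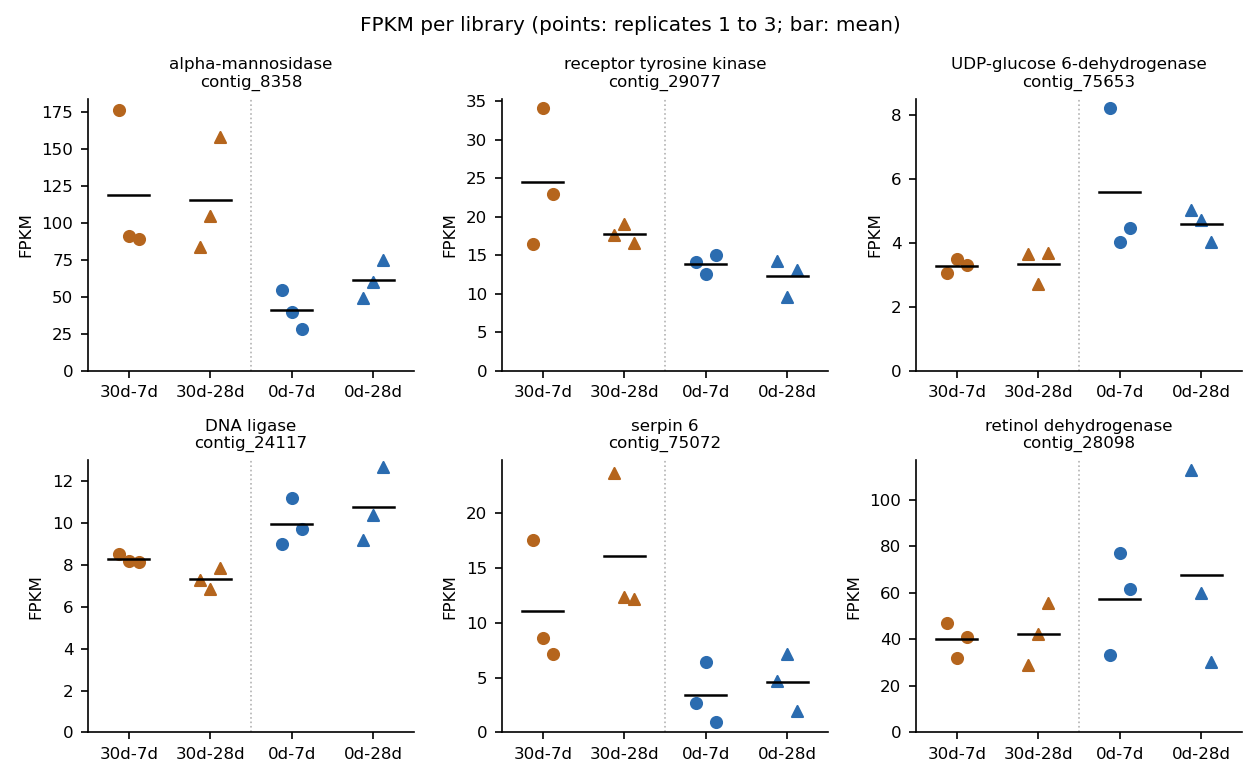
FPKM per library of the 4 named unigenes whose soils did not overlap in FPKM, and of serpin 6 and a retinol dehydrogenase (contig_28098), whose soils did. Brown points are 30d soil (left of the dotted line) and blue points 0d soil, circles 7 d and triangles 28 d, with the mean of each triplet as a bar. For alpha-mannosidase the 30d libraries sit at 83.9 FPKM or more and the 0d libraries at 75.2 FPKM or less.

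Other informative unigenes with low unadjusted p were higher in 30d soil with ranges that overlapped. The Fos-like unigene contig_145966 matches a subunit of the AP-1 transcription factor, an early response gene in vertebrates. Its level was 7.66, 6.53, 11.4, 9.05, 4.52 and 4.38 FPKM in the 30d libraries, against 5.21, 1.74, 1.33, 1.61, 1.15 and 2.4 FPKM in the 0d libraries. Only 0d-7d library 1 reached into the 30d range. The log2 change was 1.65 with a standard error of 0.41, and all 5 tested unigenes named Fos or Jun were higher in 30d soil, with a median of 0.74. Those 5 summed to 30.8 to 200.8 FPKM in 30d soil and 23.5 to 140.5 FPKM in 0d soil, which overlap widely.

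Serpins are inhibitors of serine proteases, and the unigene matched to serpin 6, contig_75072, was close to separate. Its lowest 30d library had 7.18 FPKM, against 7.19 FPKM in the highest 0d library, with medians of 12.3 FPKM in 30d soil and 3.7 FPKM in 0d soil. The log2 change was 1.69 with a standard error of 0.47. All 6 serpin unigenes were higher in 30d soil, with a median of 1.15 and a leave-one-out range of 0.90 to 1.42. Only 1 of them (16.7%, against 3.92% over all tested) had an unadjusted p under 0.05. Their sum was 48.5, 79.5 and 290.4 FPKM (lowest, median, highest) in 30d soil and 34.9, 45.1 and 72.3 FPKM in 0d soil.

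The FYVE zinc finger unigene contig_43891, of a family that binds endosome lipids, had 5.67 to 11.2 FPKM in 30d soil and 2.99 to 6.63 FPKM in 0d soil, a log2 change of 1.09. An inhibitor of apoptosis unigene, contig_134546, had 3.85 to 12.4 FPKM in 30d soil and 2.52 to 6.68 FPKM in 0d soil, a log2 change of 0.85. In both, every 30d library stood above the median 0d library while the ranges overlapped. Of all unigenes of these names, 6 of 8 FYVE matches were higher in 30d soil with a median of 0.14, and 7 of 11 inhibitors of apoptosis with a median of 0.50. A keratin-associated match, contig_30986, held 1.4 to 13.9 FPKM in 30d soil and 0.0 to 2.09 FPKM in 0d soil, a log2 change of 2.46, with 5 of 6 libraries of 30d soil above the 0d range.

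Agrin, a large proteoglycan of basement membranes, gave larger but less even differences. The unigene contig_35932 had 89.3, 2.23 and 198.1 FPKM in 30d-7d and 33.7, 6.82 and 6.94 FPKM in 30d-28d, against 14.0, 7.02 and 4.71 FPKM in 0d-7d and 0.847, 2.31 and 3.25 FPKM in 0d-28d. The log2 change of 3.22 (standard error 0.88) came from 3 libraries of 30d soil, and the others lay within the 0d range. DESeq2 called this unigene with an adjusted p of 0.0418, whereas the adjusted edgeR p was 1.0. Of 24 agrin unigenes 21 were higher in 30d soil, with a median of 1.24, which was 0.67 without 0d-28d library 3, but their sum was 69.3, 1110.4 and 2066.2 FPKM (lowest, median, highest) in 30d soil and 70.3, 112.4 and 3596.5 FPKM in 0d soil, so the ranges overlapped. Most extreme was a transposase match, contig_112520, with 98.0 FPKM in 30d-7d library 1 and 181.9 FPKM in 30d-28d library 3 and under 0.4 FPKM in each of the other 10 libraries.

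The unigenes lower in 30d soil with low unadjusted p had varied names. The match to Cdc20, contig_38620, an activator of the anaphase-promoting complex, had 4.72, 2.19, 1.03, 3.14, 1.95 and 2.37 FPKM in 30d soil, against 4.11, 6.05, 3.65, 6.58, 6.4 and 9.75 FPKM in 0d soil. All but 30d-7d library 1 lay below the 0d range. The log2 change was -1.26 with a standard error of 0.35. The hedgehog unigene contig_22116, matched to a ligand of a developmental signalling pathway in the annelid Platynereis, had 2.29 to 4.6 FPKM in 30d soil and 3.87 to 10.4 FPKM in 0d soil, a log2 change of -0.86. The 4 hedgehog unigenes split 2 higher and 2 lower in 30d soil, with a median of -0.07. The peptidase match N-acetylated-alpha-linked acidic dipeptidase 2, contig_5668, had 2.03 to 7.76 FPKM in 30d soil and 4.55 to 12.4 FPKM in 0d soil, with a change of -1.08.

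A pair of retroelement unigenes was also among the lowest p-values. The jockey element polymerase contig_31141 had 16.2 to 19.3 FPKM in 5 libraries of 30d soil and 30.8 FPKM in 30d-7d library 3, against 28.4 to 36.5 FPKM in 0d soil, a log2 change of -0.71 with a standard error of 0.22. The endonuclease-reverse transcriptase contig_8598 had 22.6 to 35.2 FPKM in 30d soil and 27.7 to 69.1 FPKM in 0d soil, a change of -0.78. Across the whole list of transposon and retroelement matches the soils were alike, with 212 of 482 unigenes higher in 30d soil and a median of -0.10.

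Other low-p matches were carried by few libraries. ARSP1, contig_41832, matched in *Eisenia fetida* itself, had 0.606 FPKM or less in every 30d library, against 36.2 FPKM in 0d-7d library 3, 35.4 FPKM in 0d-28d library 1, 11.3 FPKM in 0d-28d library 2 and 0 in the other 0d libraries. A carboxylic ester hydrolase, contig_24067, had 0.977 FPKM in 30d-7d library 1 and 0 in the other 30d libraries, against 10.6, 28.8 and 10.8 FPKM in the same 3 libraries of 0d soil. A pyruvate kinase match, contig_224109, and the sperm-associated antigen 6 match contig_286955 had 0.071 FPKM or less in every 30d library, against 47.9 FPKM and 42.2 FPKM in 0d-28d library 3 and 1.19 FPKM or less in the other 0d libraries. The other unigenes of these names did not follow, with 1 of 4 ARSP, 23 of 48 carboxylic ester hydrolase and 4 of 8 pyruvate kinase unigenes higher in 30d soil.

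The lowest edgeR p-values belonged to unigenes with no informative name, picked here after their values were seen. Contig_131512 had 1 read in the 30d libraries together, against 105, 32 and 48 reads in 0d-7d and 26, 10 and 1 reads in 0d-28d, with an adjusted p of 0.612. Contig_8642 had 0, 2, 1, 3, 0 and 1 reads in 30d soil, against 52, 485, 30, 237, 123 and 88 reads in 0d soil, also with an adjusted p of 0.612. In the other direction contig_80407 had 48, 82, 41, 30, 5 and 113 reads in 30d soil, against 3, 4, 3, 3, 2 and 2 reads in 0d soil. Contig_8642 kept the soils apart, whereas contig_80407 overlapped in FPKM, with 0.373 FPKM in 30d-28d library 2, against up to 0.455 FPKM in 0d soil. First_Contig6642 was not among the lowest, with an unadjusted edgeR p of 0.118. It was picked because edgeR called it once 30d-7d library 3 was left out. This unigene was near 0 in 5 libraries of 30d soil, with 1 to 6 reads, but had 1114 reads in 30d-7d library 3, against 354 to 733 reads in 0d soil.

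On and off patterns over a whole soil were rare. The pattern asked for at least 10 reads in at least 4 of 6 libraries of one soil and 0 in all 6 of the other. Of 92645 tested unigenes, 13 had it in 30d soil alone and 15 in 0d soil alone. Asking for 5 of 6 libraries left 1 and 1, and asking for all 6 left 0 and 0. Of the 162 unigenes called by DESeq2, 13 were at 0 in every library of one soil and 41 had soils that did not overlap in FPKM. Over all tested unigenes 161 of 92645 (0.174%) did not overlap. The 162 were picked for a soil difference in the same libraries, so more separation among them follows from that choice. In 25 of the 162, 1 library held more reads, per library total, than all the others together. The DESeq2 calls included 4 informative names, which were agrin contig_35932, lysenin-related protein 3 contig_295821 and the autophagy kinase ULK/ATG1 matches contig_72411 and contig_92067. Lysenin, a pore-forming toxin of coelomocytes, gave 1 read in 30d soil in that unigene, against 562, 235 and 37 reads in 3 libraries of 0d soil and 0 in the other 3. The kinase contig_72411 had 0 to 13 reads in 30d soil and 3 to 48 reads in 0d soil, and contig_92067 had 0 to 30 reads in 30d soil and 4 to 176 reads in 0d soil, so both overlapped between soils.

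The oxidising (phase I) enzymes of detoxification were the list with the smallest share of members higher in 30d soil, among the 26 lists. Of 85 tested unigenes, 18 were higher and 67 lower in 30d soil, against 47.3% higher over all tested, and the median log2 change was -0.32. None was called, and 4 lower and 0 higher members had an unadjusted p under 0.05 (4.71%, against 3.92% over all tested). The list's summed level was 795.5, 601.1 and 732.9 FPKM in 30d-7d and 500.1, 698.0 and 783.9 FPKM in 30d-28d, against 695.8, 1374.0 and 781.3 FPKM in 0d-7d and 1216.3, 921.6 and 935.2 FPKM in 0d-28d. Thus 4 libraries of 30d soil lay above 0d-7d library 1 and 2 of them above 0d-7d library 3, and all 0d-28d libraries lay above all 30d libraries. The median was -0.47 after 7 d and -0.31 after 28 d, and -0.47 to -0.18 with any 1 library left out.

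Cytochrome P450 enzymes made up 23 members, of which 4 were higher in 30d soil, with a median of -0.50. They summed to 65.3, 101.2 and 164.0 FPKM (lowest, median, highest) in 30d soil and 76.2, 180.0 and 345.8 FPKM in 0d soil, and the lowest unadjusted p among them was 0.0593. Flavin-containing monooxygenases were higher in 30d soil in 3 of 15 cases with a median of -0.46, summing to 100.1 to 196.7 FPKM in 30d soil and 138.8 to 270.5 FPKM in 0d soil. Retinol dehydrogenases, which oxidise retinol and related alcohols, were higher in 7 of 35 cases with a median of -0.28. The medians of the 3 enzyme families were below 0 with any 1 library left out, but single libraries moved them. That of P450 enzymes was -0.14 without 0d-7d library 2. Without 0d-28d library 1, that of flavin monooxygenases was -0.20 and that of retinol dehydrogenases -0.14. The summed ranges overlapped in each family.

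Single members overlapped as well. The retinol dehydrogenase contig_8755 had 1.96 to 5.7 FPKM in 30d soil and 4.4 to 13.1 FPKM in 0d soil, a log2 change of -1.13 with a standard error of 0.32. A further one, contig_28098, had 29.1 to 55.5 FPKM in 30d soil and 30.4 to 112.8 FPKM in 0d soil, a change of -0.72 with an unadjusted p of 0.0618. Retinol dehydrogenase 13, contig_43951, had medians of 33.5 FPKM in 30d soil and 34.7 FPKM in 0d soil. Aldehyde dehydrogenases were higher in 2 of 7 cases with a median of -0.25, which was 0.07 after 28 d and also 0.07 without 0d-28d library 2.

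The conjugating enzymes did not lean as a list. Of 48 members 23 were higher in 30d soil, with a median of -0.02. UDP-glucuronosyltransferases split 21 higher to 18 lower. The 6 glutathione S-transferases, which couple glutathione to reactive compounds, were all lower in 30d soil, with a median of -0.40 and a lowest unadjusted p of 0.221. Leaving out 30d-28d library 3 gave a median of -1.08, and leaving out 0d-28d library 2 gave -0.11. The pi-class enzyme contig_21681 had 4.32 to 31.5 FPKM in 30d soil and 13.6 to 44.6 FPKM in 0d soil, a change of -0.58 with a standard error of 0.45. The microsomal enzyme contig_14041 had medians of 30.7 FPKM in 30d soil and 28.9 FPKM in 0d soil.

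Export transporters leaned the other way. Of 21 ABC and multidrug unigenes 15 were higher in 30d soil, with a median of 0.25, which was 0.09 without 0d-7d library 3 and 0.37 without 0d-7d library 1. Their sum was 84.3 to 155.7 FPKM in 30d soil and 53.7 to 117.6 FPKM in 0d soil. The multidrug resistance match contig_18270 had 35.5 FPKM in 30d-7d library 2 and a median of 5.71 FPKM in 30d soil, against a median of 4.63 FPKM in 0d soil. Another member, contig_7606, matched ABC sub-family E member 1, which in yeast and mammals recycles ribosomes rather than exporting compounds, and had 13.9 to 36.6 FPKM in 30d soil and 9.15 to 23.9 FPKM in 0d soil.

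Among stress genes, the antioxidant enzymes showed no lean, with 23 of 47 higher in 30d soil and a median of -0.04. The glutathione peroxidase contig_1215, of a family that reduces peroxides, had 820.0 to 2062.2 FPKM in 30d soil and 900.1 to 2302.9 FPKM in 5 libraries of 0d soil, with 18.0 FPKM in 0d-28d library 3. Catalases were higher in 3 of 7 cases and superoxide dismutases in 5 of 12. Heat shock proteins and chaperones, which refold damaged proteins, were higher in 30d soil in 25 of 35 cases, with a median of 0.22. At an unadjusted p under 0.05 there were 3 higher and 0 lower members, 8.57% of the list, against 3.92% over all tested. The median was 0.12 with 30d-28d library 1 left out and 0.36 with 0d-28d library 2 left out. Heat shock protein 70, contig_645, averaged 455.0 ± 94.4 FPKM in 30d soil and 396.7 ± 130.8 FPKM in 0d soil (SD, n = 6 each), a difference smaller than the spread. All 5 T-complex chaperonin subunits were higher in 30d soil, with a pooled median of 0.31, and -0.06 after 28 d, 0.20 without 30d-7d library 1 and 0.57 without 0d-28d library 3.

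Ubiquitin and proteasome genes, which mark and degrade proteins, were higher in 30d soil in 54 of 160 cases, with a median of -0.17. That median was 0.05 without 0d-28d library 3. Polyubiquitin unigenes First_Contig4706 and contig_236409 had medians of 6426.4 and 1023.7 FPKM in 30d soil, against 5974.4 and 1049.6 FPKM in 0d soil. Both soils thus held these unigenes at like levels, within the spread.

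Metallothioneins and ferritins, which bind metal ions and store iron, had the highest list median, 0.74, with 13 of 15 members higher in 30d soil. None had an unadjusted p under 0.05 (0%, against 3.92% over all tested). The median was 2.04 without 0d-7d library 2 and 0.51 without 0d-28d library 3. The list's level depended on which unigene was followed. Ferritin contig_63 had 1384.1 to 2311.2 FPKM in 30d soil and 543.6 to 2708.6 FPKM in 0d soil, with a log2 change of 0.02. Ferritin First_Contig2165 had 7563.0 FPKM in 30d-7d library 1, 2088.0 FPKM in 30d-28d library 3 and no more than 1.96 FPKM in the rest of 30d soil, against 588.9 FPKM in 0d-7d library 2 and no more than 0.512 FPKM in the rest of 0d soil. Its log2 change of 7.45 had a standard error of 4.20. The 13 ferritins had a median of 0.74 and the 2 metallothioneins 0.47 and 2.03.

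For the nervous system, the search for names of ligand-gated chloride channels, the class of lindane's target, left 0 tested unigenes, so no value is given for it. The wider neurotransmission list was even, with 51 of 97 higher in 30d soil and a median of 0.02. Acetylcholine receptors, the receptors of the main excitatory transmitter at annelid muscle, were higher in 2 of 8 cases with a median of -0.35, summing to 7.02 to 13.8 FPKM in 30d soil and 11.3 to 16.6 FPKM in 0d soil. That median was -0.21 without 0d-28d library 2. Synaptotagmins, calcium sensors of vesicle release, were higher in 16 of 27 cases with a median of 0.09. Neuropeptide precursors split 12 to 12. The LYamide precursor contig_13546 had 38.3 to 418.7 FPKM in 30d soil and 22.3 to 110.8 FPKM in 0d soil, a log2 change of 0.96 with a standard error of 0.58.

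Immune and coelomocyte genes were higher in 30d soil in 56 of 84 cases, with a median of 0.32, which was 0.15 without 30d-7d library 2. At an unadjusted p under 0.05 there were 1 higher and 1 lower member (2.38%, against 3.92% over all tested), and none was called. Lectins, which bind sugars on microbes, were higher in 13 of 17 cases, summing to 355.9, 425.8 and 682.2 FPKM (lowest, median, highest) in 30d soil and 250.1, 290.6 and 443.3 FPKM in 0d soil. Peptidoglycan recognition proteins were higher in 17 of 21 cases with a median of 0.16, lysozymes and destabilases in 10 of 14 with a median of 0.59, and toll-like receptors in 4 of 6 with a median of 1.11. The median of the peptidoglycan recognition proteins was -0.08 without 0d-7d library 2 and 0.68 without 0d-7d library 3, and that of the lysozymes -0.08 without 30d-7d library 2, so both turned direction. That of the lectins, 0.33, was 0.61 without 0d-28d library 3. Lysenins did not follow, with 6 of 15 higher. Lysenin-related protein 2, contig_6068, had 114.3 to 971.0 FPKM in 30d soil and 70.9 to 1001.6 FPKM in 0d soil. In these bulk libraries fewer cells of a type and less RNA per cell cannot be told apart.

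Ribosomal proteins, the protein part of the translation machinery, leaned one way. Of 40 cytosolic ribosomal protein unigenes 36 were higher in 30d soil, with a median of 0.26, at 0.21 after 7 d and 0.30 after 28 d, and 0.21 to 0.34 with any 1 library left out. The sum was 6654.3, 9366.3 and 13022.5 FPKM (lowest, median, highest) in 30d soil and 6452.7, 7140.4 and 9774.5 FPKM in 0d soil. Only 1 member had an unadjusted p under 0.05 (2.5%, against 3.92% over all tested). Ribosomal protein L15, contig_2482, averaged 819.4 ± 171.1 FPKM in 30d soil and 671.2 ± 121.9 FPKM in 0d soil (SD, n = 6 each), a log2 change of 0.25 with a standard error of 0.22. All members were read from the same 12 libraries, so the 36 are not independent observations.

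Collagen and matrix genes were higher in 30d soil in 53 of 77 cases, with a median of 0.26. At an unadjusted p under 0.05 there were 4 higher and 3 lower members, 9.09% of the list, against 3.92% over all tested. The median was 0.16 without 30d-28d library 2. Collagen alpha-6(VI), contig_2967, had 14.3 to 69.8 FPKM in 30d soil and 10.6 to 55.7 FPKM in 0d soil, a log2 change of 0.64 with a standard error of 0.49. Nuclear receptors were higher in 11 of 15 cases with a median of 0.18, which was 0.07 without 0d-7d library 3. The retinoid X receptor match contig_42751 had 8.75 to 58.4 FPKM in 30d soil and 6.64 to 32.2 FPKM in 0d soil. The extracellular hemoglobin of the blood had 7 of 15 members higher and a median of -0.10, which was 0.22 without 0d-28d library 1.

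**Figure D3:**
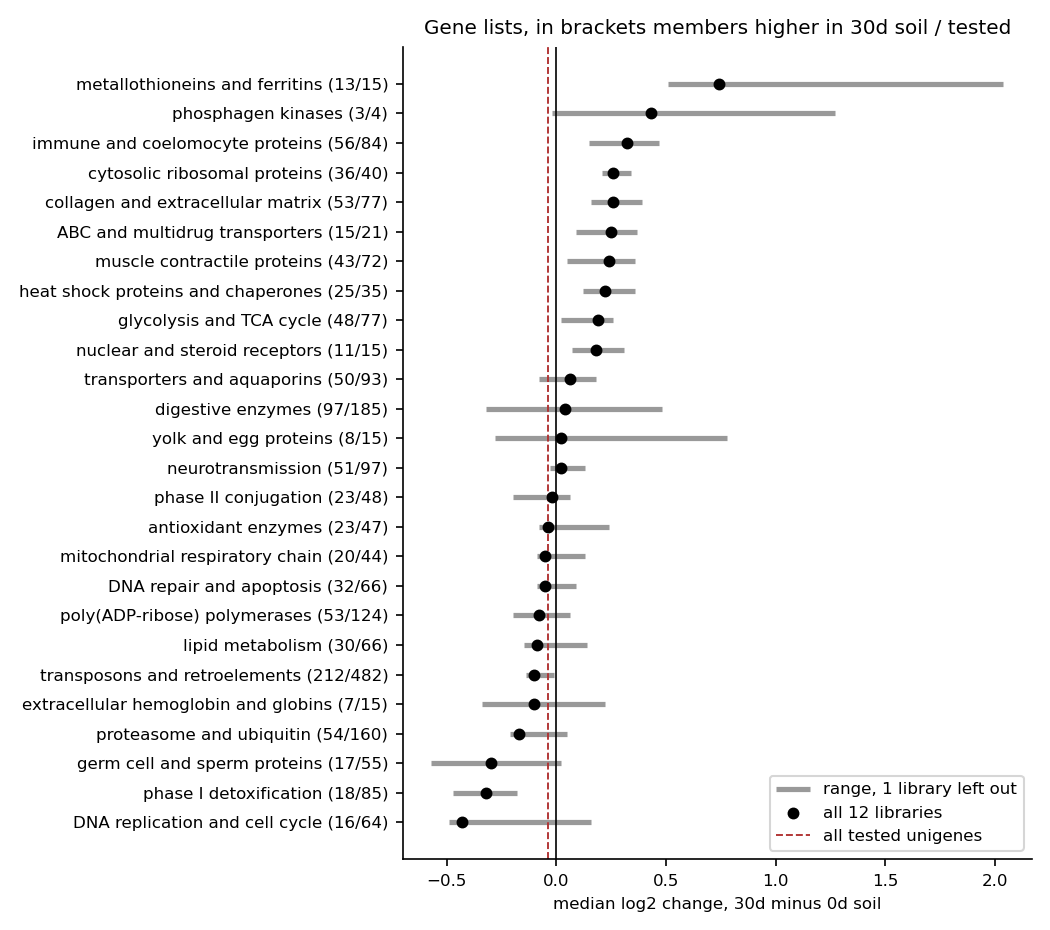
Median log2 change, 30d minus 0d soil, of 26 gene lists. Points use all 12 libraries, grey bars span the medians with each library left out in turn, the dashed line is the median of all tested unigenes (-0.04), and brackets give members higher in 30d soil over members tested. Phase I detoxification stays below 0 throughout its bar (-0.47 to -0.18) and ribosomal proteins above it (0.21 to 0.34), while DNA replication crosses 0.

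Over 28 alternative settings, which include each exposure time alone and the groups by the treatment field, 6 of 26 lists kept the sign of their median. These were phase I detoxification below 0 and, above 0, ABC transporters, metallothioneins and ferritins, immune proteins, ribosomal proteins and collagen and matrix. With the groups by the treatment field, the phase I median was -0.23 and that of ribosomal proteins 0.08. The lists were not tested as sets, and their members share libraries.

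Log2 changes with soil age at the 2 exposure times had little relation across unigenes. The 7 d and 28 d comparisons use different libraries, and their log2 changes had the same sign for 46386 of 92645 unigenes (50.1%), with Pearson's r across unigenes of 0.056. At an unadjusted p under 0.05 in both, 231 of 410 unigenes had the same sign (56.3%). Within 7 d the edgeR count was 0 (0%), with 1664 unigenes higher (1.8%) and 1889 lower (2.04%) in 30d soil before adjustment, 3553 in all (3.84%), and 49.9% of changes above 0. Within 28 d the count was again 0 (0%), with 1908 higher (2.06%) and 3491 lower (3.77%) before adjustment, 5399 in all (5.83%), and 47.7% of changes above 0. For the interaction, 28 d minus 7 d, it was 0 (0%) with a lowest adjusted p of 0.411, and 2136 unigenes were positive (2.31%) and 2442 negative (2.64%) before adjustment, 4578 in all (4.94%), with 48.2% of values above 0. DESeq2 called 598 unigenes for the interaction (0.645%). The medians of 16 of 26 lists had opposite signs at 7 d and 28 d, 8 were above 0 at both and 2 were below 0 at both. The lists were drawn from the 8882 tested unigenes with an informative name, and that whole set also changed sign. Its median was 0.13 after 7 d, with 5114 higher in 30d soil, and -0.09 after 28 d, with 3991 higher.

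Muscle, energy and gut lists had medians of opposite sign at the 2 exposure times. Muscle contractile proteins had medians of -0.38 after 7 d and 0.81 after 28 d, and glycolysis and citric acid cycle enzymes -0.26 and 0.31. Lombricine kinase, the annelid enzyme that stores phosphate energy in muscle, shows the values behind this. The unigene contig_11628 had 18.7, 350.5 and 526.3 FPKM in 30d-7d and 45.1, 2234.0 and 428.8 FPKM in 30d-28d, against 552.6, 200.9 and 6831.0 FPKM in 0d-7d and 330.4, 7.46 and 148.9 FPKM in 0d-28d. Library 2 of 30d-28d and library 3 of 0d-7d were thus each the highest of their soil.

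The same pair of libraries led for other muscle genes and for glyceraldehyde-3-phosphate dehydrogenase (GAPDH), a glycolytic enzyme. GAPDH contig_33542 had 128.8, 158.4 and 183.1 FPKM in 30d-7d and 310.2, 1037.3 and 318.0 FPKM in 30d-28d, against 337.1, 119.3 and 1401.4 FPKM in 0d-7d and 56.7, 36.0 and 93.6 FPKM in 0d-28d. Its log2 change was -2.08 after 7 d and 3.15 after 28 d, with an unadjusted interaction p of 0.00194 and an adjusted p of 0.94. Myosin essential light chain contig_1202 gave -1.70 and 1.59, with 2087.5 FPKM in 30d-28d library 2 and 2761.2 FPKM in 0d-7d library 3.

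Digestive enzymes had medians of 0.44 after 7 d and -0.40 after 28 d, and amylases alone 1.84 and -1.56. Lumbrokinases and fibrinolytic proteases, serine proteases of the earthworm gut, gave 0.61 and -1.14. Pooled medians of both groups turned sign with single libraries, from -1.05 to 1.04 for amylases and -1.43 to 0.93 for lumbrokinases, the lower ends without 30d-7d library 3 and the upper ends without 0d-28d library 1 for amylases and 0d-7d library 3 for lumbrokinases. Cathepsins, proteases of lysosomes counted in the same list, had 33 of 45 members higher in 30d soil, with medians of 0.20 after 7 d and 0.50 after 28 d. None was called, and 6 higher and 0 lower members had an unadjusted p under 0.05, 13.3%, against 3.92% over all tested. The pooled median of 0.42 was 0.26 without 0d-28d library 2. Whether cathepsins differ from the other digestive enzymes was not tested. Cathepsins summed to 2511.2, 3679.4 and 3911.6 FPKM (lowest, median, highest) in 30d soil and 2072.7, 2297.7 and 3608.0 FPKM in 0d soil.

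Genes of germ cells and of DNA replication were lower in 30d soil after 28 d, with medians of -0.85 and -0.82, and at 0.28 and 0.07 after 7 d. The pooled medians turned with a single library of that time. PIWI1, a germline RNA-silencing protein, First_Contig345, had 0.497 to 5.79 FPKM in 30d soil, against 288.5 FPKM in 0d-28d library 3 and 1.01 to 4.7 FPKM in the other 0d libraries. Without that library the pooled median of the germ list was 0.02, against -0.30 with it, and that of the replication list 0.16, against -0.43 with it. The same library held 12.1 FPKM of summed globins, where the other 0d libraries held 1937.6 to 10959.7 FPKM. The part of this library in other results was tested by leaving it out.

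**Figure D4:**
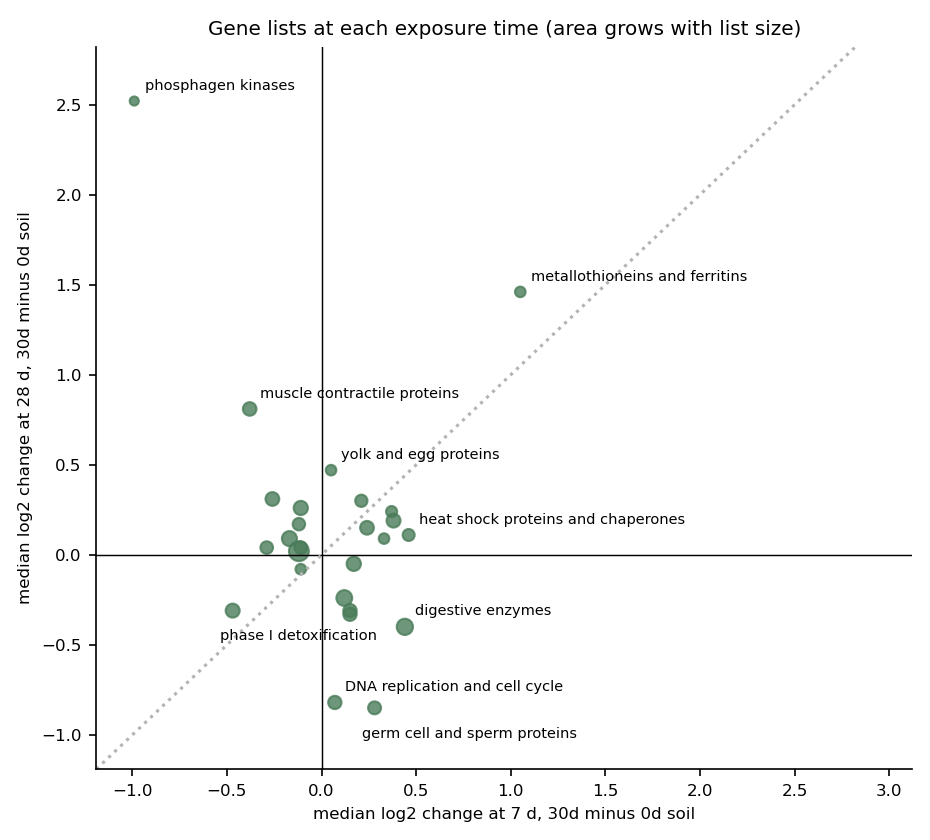
Median log2 change of each gene list, 30d minus 0d soil, after 7 d (horizontal) and after 28 d (vertical), with 1 point per list. Points on the dotted line would have equal medians; muscle lies at -0.38 and 0.81, digestive enzymes at 0.44 and -0.40, and phase I detoxification below 0 on both axes.

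Some unigenes with very wide ranges split the libraries into sets that crossed the soils. Lumbrokinase-7T1, contig_150, had 2769.8, 3.24 and 15361.8 FPKM in 30d-7d and 15375.0, 1.12 and 542.1 FPKM in 30d-28d, against 2.59, 6.14 and 4533.1 FPKM in 0d-7d and 17734.6, 11756.7 and 4.02 FPKM in 0d-28d. Levels under 7 FPKM and levels of 2769.8 FPKM or more thus occurred in both soils. Fibrinolytic protease 1, contig_69, was low in the same 5 libraries, with 0.979 to 9409.1 FPKM in 30d soil and 1.29 to 15474.8 FPKM in 0d soil. The log2 changes of the pair were 0.39 and -0.07, with standard errors of 2.54 and 2.31.

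A second set was high in 30d-7d library 1, 30d-28d library 3 and 0d-7d library 2. Annetocin, the oxytocin-related peptide that induces egg-laying behaviour in *Eisenia fetida*, First_Contig6892, had 594.3 and 729.7 FPKM in that pair of 30d libraries and 0.557 FPKM or less in the rest of 30d soil, against 144.5 FPKM in 0d-7d library 2 and 5.71 FPKM or less in the rest of 0d soil. The matches to a yolk protein subunit, contig_323783, with 1932.3, 876.0 and 130.8 FPKM in the same 3 libraries, and to hemicentin-1, an extracellular matrix protein, First_Contig4785, with 5606.0, 3607.5 and 1489.1 FPKM, were also high there. So were the ferritin First_Contig2165 described above and the bactericidal permeability-increasing protein 2, First_Contig6794, with 4782.2, 1966.2 and 373.3 FPKM. Since 2 of the 3 libraries belong to 30d soil, these unigenes had large positive log2 changes, 4.24 to 7.45, with standard errors of 3.04 to 4.67 and unadjusted p of 0.0877 to 0.206. The alpha-mannosidase contig_8358 was also highest in 30d-7d library 1 and 30d-28d library 3. The other 4 libraries of 30d soil, at 83.9 to 104.8 FPKM, still lay above every 0d library in FPKM, though not in scaled reads.

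**Figure D5:**
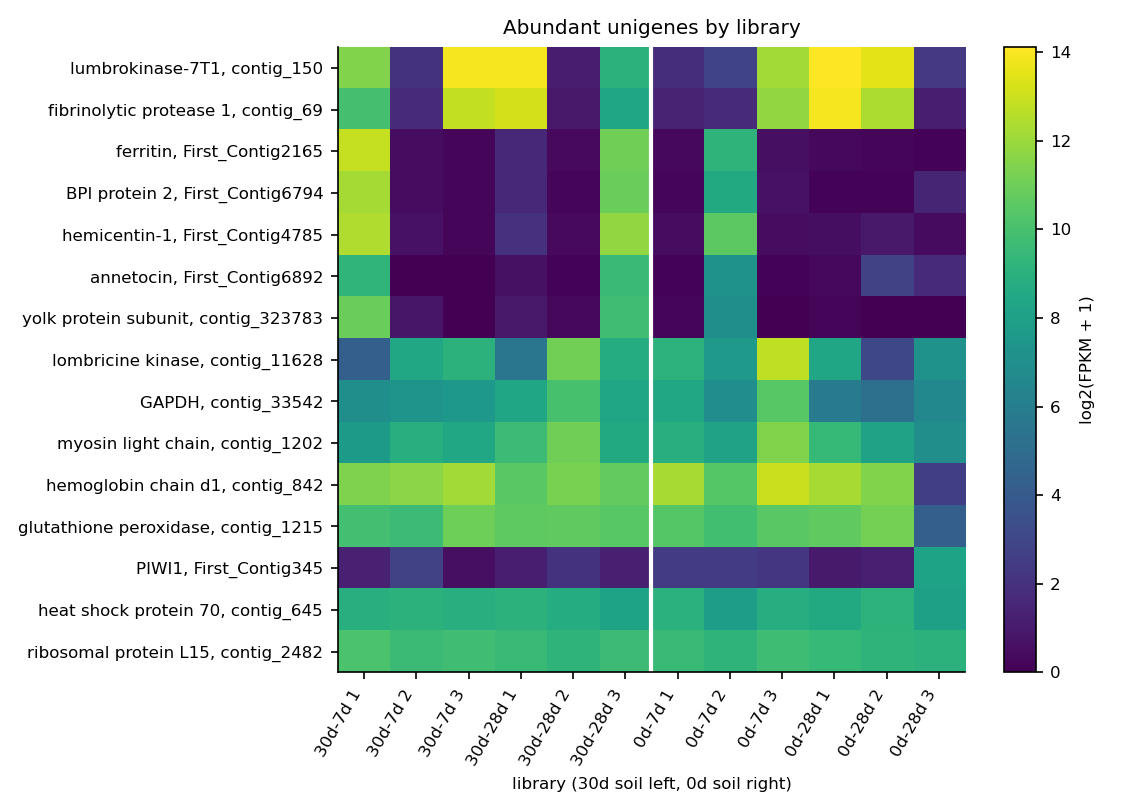
Level of 15 unigenes, log2(FPKM + 1), in the 12 libraries, 30d soil left of the white line and 0d soil right of it. Lumbrokinase and fibrinolytic protease are high in libraries of both soils, ferritin First_Contig2165 to the yolk protein in 30d-7d 1, 30d-28d 3 and 0d-7d 2, PIWI1 in 0d-28d 3 alone, and heat shock protein 70 and ribosomal protein L15 are level.

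The remaining lists showed small medians. DNA repair and apoptosis genes were higher in 30d soil in 32 of 66 cases, with a median of -0.05, and the caspase contig_126805, a protease of programmed cell death, had medians of 27.5 FPKM in 30d soil and 28.0 FPKM in 0d soil. Poly(ADP-ribose) polymerases, which mark damaged DNA, were higher in 53 of 124 cases with a median of -0.08. Lipid metabolism had 30 of 66 higher and a median of -0.09, the respiratory chain 20 of 44 and -0.05, and transporters and aquaporins 50 of 93 and 0.06. The proton pump subunit contig_784 had 217.3 to 360.2 FPKM in 30d soil and 110.4 to 653.0 FPKM in 0d soil, the wider range being that of 0d soil. Yolk and egg proteins split 8 to 7 with a median of 0.02, and the 4 phosphagen kinases had a median of 0.43, which was -0.02 without 30d-28d library 2.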

How the data were processed

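Libraries were made from total RNA of body sections with Illumina protocols, according to the labels. The authors deposited, per the file headers, a whole-number read count and an FPKM value for each of 241846 unigenes and library. Which assembler, aligner and counter made them is not stated in the labels or the file header. The deposited FPKM values were a library median of 2.42 to 3.5 times reads per length and library total for unigenes of 399 to 500 bases. From 2000 bases they were 0.807 to 1.11 times that value. The factor thus differed with length and also between libraries, so levels are not compared between unigenes. FPKM ranges, list sums and overlaps between libraries carry part of this difference, whereas the edgeR and DESeq2 tests used reads. Near-identical contigs may share reads and are uncertain.

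Counts of the 12 libraries were filtered with filterByExpr (minimum count 10, minimum total 15), scaled by TMM and tested with edgeR 4.0.16 quasi-likelihood F tests, two-sided, with exposure time as covariate and Benjamini-Hochberg adjustment at 0.05 over all tested unigenes. The common biological coefficient of variation was 0.913. A 4-group fit gave the interaction and the change within each time. Standard errors are the log2 change divided by the square root of F. DESeq2 1.42.0 and limma 3.58.1 (pseudocounts 1 and 0.1), other filters, scalings and sample sets were alternatives. The scripts were tested on simulated data with less spread between libraries than these data had, so that test does not bear on the count of 0. With 12 libraries and counts of this depth, intervals cover the spread between libraries.

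The members and the 27 gene lists (patterns on protein names, 26 with tested members) were chosen with earlier results of these data known, and patterns were corrected from the table's protein names. Named unigenes are the 10 higher and 10 lower with the lowest p among informative names at 5 FPKM or more, the 2 of each list with the highest mean FPKM, and those of that group whose soils did not overlap; others are said to be picked after their values were seen, as are the subgroups and same-name groups.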

Additional observations from a re-analysis of the deposited data

Results flagged for a closer look

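Within the 6 libraries of a soil, 1 library stood far from the other 5 in 38 of 202 values examined (26 list sums and 75 unigenes in each soil), or 18.8%, by Dixon's gap criterion at the 95% level on log2(FPKM + 1). Chance flags about 1 in 20 groups of independent, normally spread values. The values here share libraries, and many unigenes are members of the summed lists, so 18.8% cannot be set against that rate. No cause was tested.

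The library with most flags, 12, was 0d-28d replicate 3. Its antioxidant sum was 1070.5 FPKM (others of 0d soil 3066.5 to 4989.7), with 18.0 and 8.9 FPKM of glutathione peroxidases contig_1215 and contig_1216. Its globin sum was 12.1 FPKM, with 5.24 FPKM of hemoglobin chain d1 contig_842 and 0.507 FPKM of the linker contig_3303, and its ferritin contig_63 stood at 543.6 FPKM. High in it were germ cell genes at 1127.8 FPKM, DNA replication genes at 1114.4 FPKM, PIWI1 First_Contig345 at 288.5 FPKM, pyruvate kinase contig_224109 at 47.9 FPKM and sperm-associated antigen 6 contig_286955 at 42.2 FPKM.

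In 0d-7d replicate 2 the 8 flags were all high values. Collagen and matrix genes summed to 1859.4 FPKM, hemicentin-1 First_Contig4785 was at 1489.1, ferritin First_Contig2165 at 588.9, bactericidal permeability-increasing protein 2 First_Contig6794 at 373.3, annetocin First_Contig6892 at 144.5, yolk unigenes contig_323783 and contig_55225 at 130.8 and 86.6, and agrin contig_135291 at 1.55 FPKM.

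Of 30d soil, replicate 2 of 30d-7d had 155.7 FPKM of ABC transporters, 67663.9 FPKM of respiratory chain genes and 15271.5 FPKM of NADH-ubiquinone oxidoreductase chain 1 contig_642, all high, 2262.7 FPKM of antioxidant genes, low, and 0.07 FPKM of contig_286955, which is near 0. Replicate 2 of 30d-28d had 8371.3 FPKM of muscle genes, 7012.0 FPKM of glycolysis genes and 1223.9 FPKM of tropomyosin contig_2234, all high, and 35.8 FPKM of fatty acid 2-hydroxylase contig_7918, low. Replicate 3 of 30d-7d had 883.1 FPKM of the linker contig_3303 and 30.8 FPKM of the jockey element contig_31141, and replicate 1 of 30d-7d had 0.977 FPKM of contig_24067, where the others were at 0.

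Of the other 0d libraries, 0d-7d replicate 3 had 8738.4 FPKM of glycolysis genes, 3383.6 FPKM of transposons and 1349.1 FPKM of GAPDH contig_32733, all high, and 0.0 FPKM of contig_30986. In 0d-7d replicate 1, transporters summed to 2192.4 FPKM and UDP-glucose 6-dehydrogenase contig_75653 was at 8.24 FPKM, both high.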

How the results depend on the processing

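The count of unigenes between soils was 0 by edgeR under other scalings and filters, without the covariate, with all 15 libraries, at each exposure time alone and by the treatment field (3929 at unadjusted p under 0.05), and 0 by limma. DESeq2 gave 162 between soils and 598 for the interaction; the cause was not tested. Leaving out 1 library gave 0 to 1 between soils and 0 for the interaction. The 1 is First_Contig6642, lower in 30d soil with an adjusted p of 0.0012 once 30d-7d replicate 3, where it had 1114 reads, is left out. Without the 2 libraries farthest from the others (0d-7d replicate 3 and 0d-28d replicate 3, chosen after seeing the data) the count was 1, contig_161498, with an adjusted p of 0.0411. Fewer libraries admit more unigenes, 102981 to 104621 when 1 is left out.

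The share of distance was 6.31% with Pearson's r (exact permutation p = 0.885) and 7.1% to 8.61% with a library left out (p = 0.67 to 0.925). Of 75 named unigenes, 39 kept their sign in every one of the 28 settings that tested them. Not all were tested in each setting, with 71 by the treatment field and 67 at each exposure time alone. Those picked for a low p in these data were likely to keep their sign by that choice. Agrin contig_35932 was past the threshold by DESeq2 (adjusted p 0.0418, log2 change 3.19). The replicate block gave 0 calls in both tests (2883 and 3143 at unadjusted p under 0.05). Same-numbered libraries did not deviate together (mean r -0.063, from -0.247 to 0.355), and 2 of 12 were closest to their own number, so the numbers were not read as pairs. Intervals were wider at low levels, with a median half-width of 1.91 (log2) under 1 FPKM and 0.97 at 5 to 50 FPKM.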
